A study of Mus musculus with 116 samples.

Results

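Messenger RNA of the tumour suppressor p53 (Trp53), of its inhibitors Mdm2 and Mdm4, and of 7 p53 target genes was followed in mouse oocytes and early embryos. The targets were Cdkn1a, Ccng1, Aen, Sesn2, Trp53inp1, Gadd45a and Btg2. These 10 genes were chosen by symbol. Each had 1 row in each of the 4 deposited tables, so that all 10 were found among 24028 gene symbols shared by the tables. The question was whether a temporary block of transcription, begun in the zygote, left a p53 response in the late 2-cell embryo.

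The study measured RNA polymerase II binding and RNA in oocytes and preimplantation embryos. Embryos were wild type, from C57BL/6N females crossed with PWK males, and the 8-week-old females had been given PMSG and hCG. MII oocytes, mature oocytes in metaphase, were taken 13 h after hCG, zygotes of the PN5 stage, the last before division, at 30 h, and early 2-cell embryos at 36 h. For the late 2-cell groups, zygotes were collected 23 h after hCG and kept for 14 h in 60 uM DRB or in 0.1% DMSO, then washed free and cultured for 12 h. The DRB group carries the label mTBE in the sample titles and the word DRB in the deposited table, and the DMSO group is called control here. Inner cell mass (ICM) was taken from blastocysts at 98 h. The ICM had 2 libraries and each other group had 1, made from total RNA of about 100 pooled oocytes or embryos. ICM libraries were prepared by Smart-seq2 from polyadenylated RNA. No difference between groups could be tested, and pooled embryos of 1 library say nothing of the spread between embryos. In such pools, fewer cells of a type and less RNA per cell cannot be told apart.

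p53 is a transcription factor that is held low by Mdm2, a ubiquitin ligase that marks it for degradation, and by the related protein Mdm4, which binds and masks its activation domain. Because p53 activates Mdm2, the pair forms a feedback loop, and stress is sensed mainly at the level of p53 protein, not of its messenger RNA. When p53 is active, targets such as Cdkn1a, Ccng1, Mdm2 and Sesn2 rise together. DRB inhibits the kinase that releases paused RNA polymerase II into elongation. In cultured somatic cells a block of elongation is known to stabilise p53 protein, since short-lived Mdm2 is lost. Aen and Trp53inp1 have also been linked to cell death, so the set is not strictly non-apoptotic. p53 protein was not measured here.

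The p53 response element is a pair of adjoining 10-base elements, each with the core CNNG. It is shown for the genes whose promoter window holds a match. A match alone does not make a gene a direct p53 target. The windows were those of RefSeq for build GRCm38.p6, 250 bases before to 50 bases after a transcript start. They were found for 9 of the 10 genes (12 windows) and not for Trp53inp1. A match allowed at most 3 mismatches to the published p53 consensus over 20 bases, with no spacer and the C and G of both cores intact. The consensus reads the same on both strands. Of all 32851 windows 1.38% held a match, and 4 of the 9 genes did. The matches are printed in capitals on the gene's strand, with 5 flanking bases on each side in lower case.
Cdkn1a, chr17:29090923-29090952: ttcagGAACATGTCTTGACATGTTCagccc
Ccng1, chr11:40755457-40755486: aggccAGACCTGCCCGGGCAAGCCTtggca
Aen, chr7:78895932-78895961: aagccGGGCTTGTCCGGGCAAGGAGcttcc
Trp53, chr11:69580279-69580308: cggaaGGACTTGCCCTTACTTGTTAtggcg
The Cdkn1a and Ccng1 matches had 1 mismatch each, a level reached by 22 of the 32851 windows (0.067%). The Aen and Trp53 matches had 3. The Cdkn1a match began 51 bases before the more upstream of the gene's 2 listed starts, and the Ccng1 match 195 bases before its start. The windows of Mdm2, Mdm4, Sesn2, Gadd45a and Btg2 held none within 3 mismatches, which says nothing of sites elsewhere in these genes. Among the genes with a match, Cdkn1a, Ccng1 and Aen were chosen as known p53 targets and Trp53 was not. The matches describe the set and are not a result of these libraries.

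Marker genes were set beside the labels of the libraries. All 8 oocyte markers were at 1 FPKM or more in each total RNA library, so that they do not separate these stages. Of 8 markers of the 2-cell stage, 8 reached 1 FPKM in the DRB and 7 in the control library. MII held 0 of these, PN5 4 and early 2-cell 6. Both late 2-cell libraries also held 6 of 6 ICM and 5 of 6 trophectoderm markers at that level. Of 10 cumulus and granulosa markers, 7 reached it in DRB and 6 in control embryos, against 2 in each other total RNA library. FPKM, the unit the authors used, scales mapped fragments to transcript length and library size, so levels of different genes can be set side by side within a library. The ICM libraries carried Nanog at 104.5 and 133 FPKM, against 1.84 FPKM in control embryos. Tdgf1 was also higher, at 107 and 61.0 FPKM against 1.09 FPKM. The other ICM markers were not. Klf4 was lower, at 8.64 and 11.5 FPKM against 57.0 FPKM, and so were Sox2 and Esrrb. Pou5f1, at 280 and 163 FPKM, lay on both sides of the control value of 203 FPKM. The ICM libraries also held 6 of 6 trophectoderm markers, among them Krt18 at 1116 and 991 FPKM and Cdx2 at 31.4 and 22.1 FPKM. ICM values below are values of libraries that hold markers of both lineages. PN5 and both late 2-cell libraries shared a deposited table. MII, early 2-cell and ICM were normalized separately, and levels set across tables are less certain. The summed FPKM was 212707 in the early 2-cell library and 288512 to 474686 in the other 6.

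None of the 10 genes was at least 2-fold higher in the DRB library than in the control library, and 1, Sesn2, was at least 2-fold lower. Sesn2 was at 28.0 FPKM in DRB embryos, against 92.8 FPKM in control embryos. The other 9 lay within 2-fold, with ratios of DRB to control from 0.646 for Mdm2 to 1.13 for Trp53inp1. A difference was taken on the log2(FPKM + 1) scale, which understates the change of low genes, and only for genes that reached 1 FPKM in either library. At least 2-fold means a difference of 1 on that scale. By this rule 15.6% of 13726 measured genes differed, 5.57% being higher and 9.99% lower in the DRB library. A single lower gene among 10 is close to the share over all genes. With each library rescaled to a sum of 1000000, the split over all genes was 1859 higher and 2106 lower, in place of 765 and 1371. The deposited sums were 358284 (DRB) and 350614 (control). Rescaling thus raised every value, while the pseudocount and filter stayed at 1 FPKM. A pseudocount of 0.1 FPKM without rescaling gave 1432 higher and 1937 lower. The count for the 10 genes was 0 higher and 1 lower with the common sum too.

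**Figure D1:**
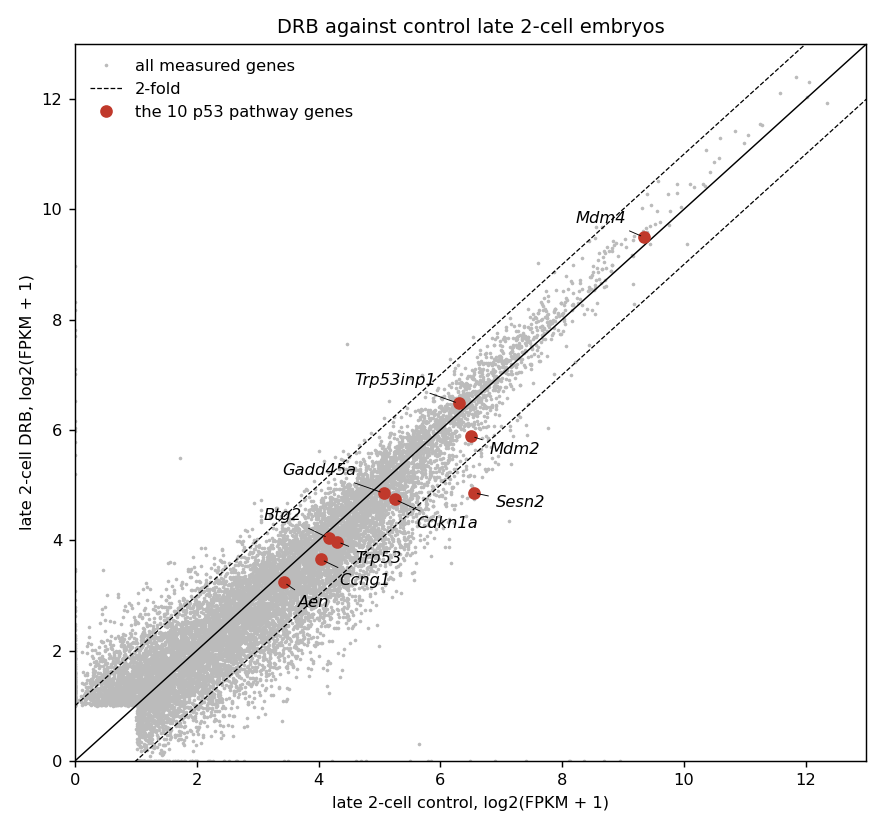
Level of each measured gene in the late 2-cell DRB library (vertical axis) and the control library (horizontal axis), both in log2(FPKM + 1), with the 10 p53 pathway genes in red and dashed lines at 2-fold. Sesn2, at 28.0 FPKM in DRB and 92.8 FPKM in control embryos, is the only red point outside the dashed lines.

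Small differences leaned to one side. Of the 10 genes, 8 were lower in DRB than in control embryos and 2 were higher, Mdm4 and Trp53inp1. Over all measured genes 53.4% were lower. The median difference was -0.27 for the 10 genes and -0.05 for all genes. After the median log2 ratio of well-expressed genes (-0.10) was set to 0, these medians were -0.18 and 0.04, and 8 of the 10 genes were still lower. As deposited, the all-gene median varied with level. Among genes at 5 FPKM or more in either library, as all 10 genes were, it was -0.13. By mean level of the 2 libraries it was 0.03 at 1 to 5 FPKM, -0.22 at 5 to 20, -0.09 at 20 to 100 and 0.20 from 100 FPKM. No spread within a late 2-cell group is known. Between the 2 ICM libraries, which are replicates, 9 of the 10 genes were measured and 8 of them lay within 2-fold, Cdkn1a being the exception. Of 9983 genes 5.11% differed, 2.79% being higher and 2.31% lower in ICM replicate 1 than in replicate 2. The widest difference was -1.69 (Sesn2) between DRB and control and -1.92 (Cdkn1a) between the ICM replicates. With these 2 genes left out for those values, the other 7 measured in both comparisons differed by at most 0.62 and 0.40. The ICM libraries are of another stage and were made by another method, so their spread need not be that of the late 2-cell libraries.

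Trp53 itself lay between 12.9 and 21.8 FPKM in the 5 total RNA libraries as deposited. It was at 12.9 FPKM in MII, 21.1 in PN5, 21.8 in early 2-cell, 14.7 in DRB late 2-cell and 18.8 in control late 2-cell embryos, and at 62.2 and 72.2 in the ICM libraries. The DRB value was 78.1% of the control value, a log2 difference of -0.34. The ICM libraries stood apart above all others, and the lowest of the 7 was MII. With median scaling the early 2-cell library was 1.27 above MII on the log2 scale, past the 2-fold rule, against 0.72 as deposited. The order of the other libraries rests on 1 library each and could not be set against a spread. A pseudogene copy of Trp53, Trp53-ps, is named in RefSeq and could share reads with it.

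The inhibitors Mdm2 and Mdm4 were described next. Mdm2 was at 42.9 FPKM in MII, 58.1 in PN5, 24.8 in early 2-cell, 58.1 in DRB late 2-cell and 90.0 in control late 2-cell embryos, and at 12.2 and 13.5 in the ICM libraries. Mdm4 was at 250.2 FPKM in MII, 455 in PN5, 81.0 in early 2-cell, 720.3 in DRB late 2-cell and 650.0 in control late 2-cell embryos, and at 9.78 and 7.99 in the ICM libraries. In the control library Mdm4 ranked 37 of the 24028 symbols by level and in the DRB library 40. The pair differed in direction: the DRB library held 64.6% of the control level of Mdm2 and 111% of that of Mdm4. Both differences were within 2-fold, at -0.62 and 0.15 on the log2 scale. The DRB level of Mdm2 equalled that of PN5 to 3 digits, and the control level was above both. RefSeq names a pseudogene, Mdm4-ps, and 2 genes that overlap Mdm4. Whether strand was used in counting is not given in the sources used here, so part of the Mdm4 signal could belong to them.

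Ratios within a library do not depend on how tables were scaled. Mdm2 over Trp53 was 3.34 in MII, 2.75 in PN5, 1.14 in early 2-cell, 3.95 in DRB and 4.78 in control late 2-cell embryos, and 0.196 and 0.187 in the ICM libraries. Mdm4 over Trp53 was 19.4, 21.5, 3.71, 49.0 and 34.5 in the same 5 total RNA libraries, and 0.157 and 0.111 in the ICM libraries. Transcripts of both inhibitors thus outnumbered those of Trp53 per unit length in each of the 5 total RNA libraries and were fewer in both ICM libraries. A ratio does not remove a difference of library method, and the ICM libraries were made by another one. Its part in this difference was not tested. The Mdm4 ratios could also hold signal of its pseudogene and of overlapping genes. Mdm4 over Mdm2 was 12.4 in DRB and 7.23 in control embryos, the highest value and the third highest of the 7 libraries, with PN5 at 7.83 between them.

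Cdkn1a, which encodes the cyclin-dependent kinase inhibitor p21, was below 1 FPKM, the filter used here, in both the oocyte and the zygote. It was at 0.0378 FPKM in MII, 0.745 in PN5, 5.49 in early 2-cell, 25.8 in DRB and 37.1 in control late 2-cell embryos, and at 3.76 and 17.0 in the ICM libraries. Its level thus stood higher at each later stage up to the late 2-cell embryo, with the DRB library at 69.5% of control. The ICM replicates differed 4.52-fold, more than DRB and control embryos did (control over DRB, 1.44-fold).

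**Figure D2:**
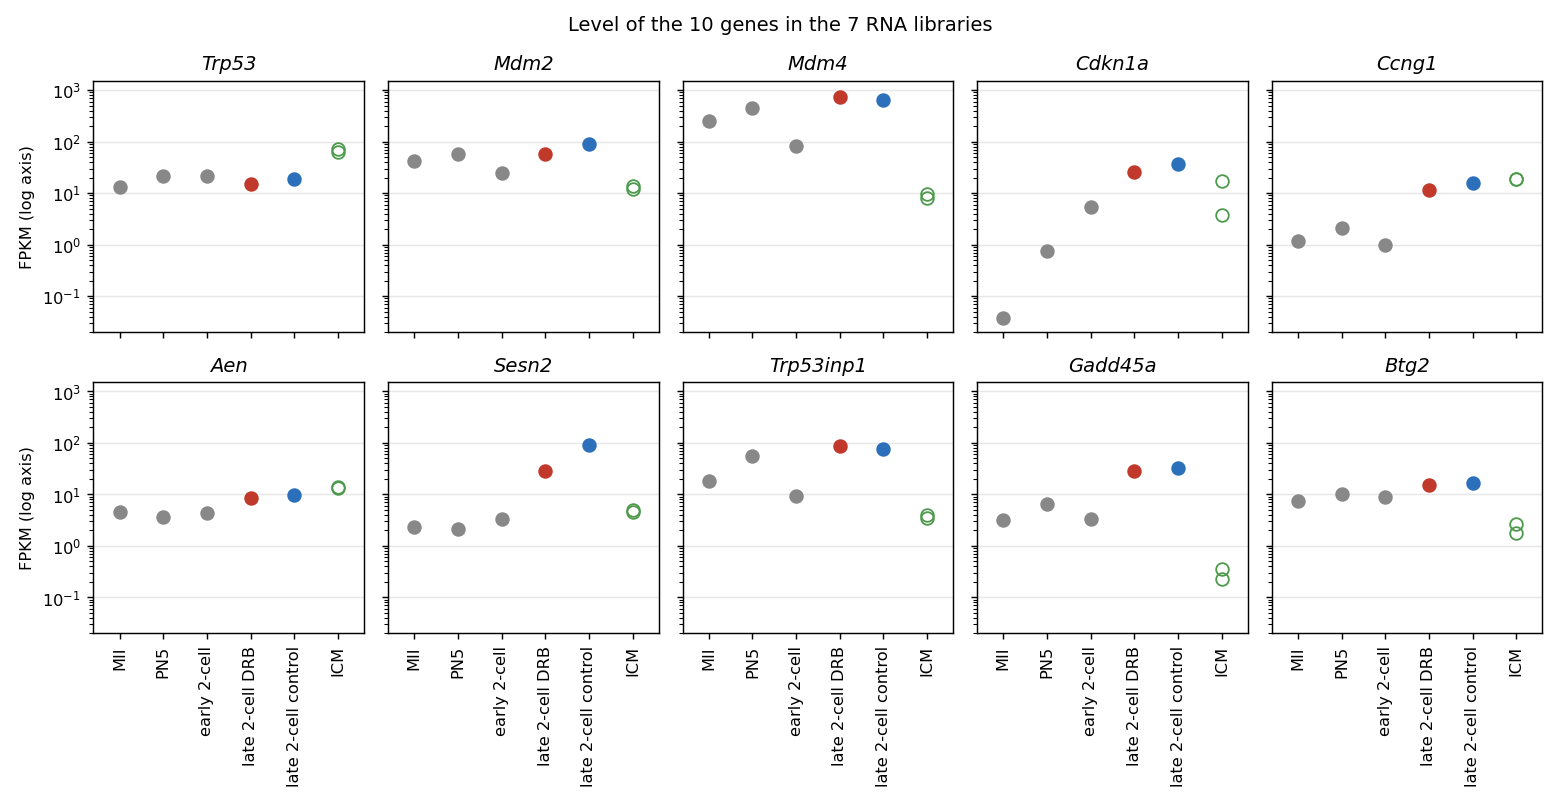
FPKM of each of the 10 genes on a log axis in MII, PN5, early 2-cell, late 2-cell DRB (red), late 2-cell control (blue) and both ICM libraries (green, open); each point is 1 library. Cdkn1a, Ccng1, Sesn2 and Gadd45a stand higher in both late 2-cell libraries than in MII, PN5 and early 2-cell, and Mdm4 and Trp53inp1 are lowest in the ICM libraries.

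Ccng1, an atypical cyclin that works with Mdm2 in feedback on p53, was at 1.20 FPKM in MII, 2.13 in PN5, 0.982 in early 2-cell, 11.6 in DRB and 15.4 in control late 2-cell embryos, and at 19.1 in each ICM library. Gadd45a, a growth arrest and DNA damage protein, was at 3.23, 6.57, 3.38, 27.9 (DRB) and 32.5 (control) FPKM in the 5 total RNA libraries, and at 0.229 and 0.363 in the ICM libraries. Btg2, an antiproliferative protein that recruits the deadenylase complex, was at 7.45, 10.3, 9.13, 15.4 (DRB) and 16.9 (control) FPKM, and at 1.77 and 2.66 in the ICM libraries. In all 3 the DRB value was below control, at 75.0% for Ccng1, 85.9% for Gadd45a and 91.3% for Btg2. A long noncoding RNA gene overlaps Gadd45a in RefSeq.

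Sesn2 encodes Sestrin 2, a stress protein that restrains mTORC1 and that is induced by p53 as well as by the transcription factor ATF4. It was at 2.33 FPKM in MII, 2.16 in PN5, 3.39 in early 2-cell, 28.0 in DRB and 92.8 in control late 2-cell embryos, and at 5.03 and 4.63 in the ICM libraries. The control was highest and the DRB library second, and the other 5 libraries did not exceed 5.03 FPKM. The DRB library held 30.2% of the control level, a log2 difference of -1.69, and 243 of 13726 genes (1.77%) had a lower difference. The difference was between -1.75 and -1.60 under the alternative pseudocount, filters, scalings and treatment of repeated rows.

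Trp53inp1, which encodes a nuclear protein that promotes autophagy and p53 activity, was at 18.3 FPKM in MII, 56.3 in PN5, 9.43 in early 2-cell, 88.3 in DRB and 78.0 in control late 2-cell embryos, and at 3.49 and 4.02 in the ICM libraries. Aen, an exonuclease, was at 4.62, 3.72, 4.33, 8.44 (DRB) and 9.75 (control) FPKM, and at 13.8 and 13.5 in the ICM libraries. Trp53inp1 was, like Mdm4, highest in the DRB library and lowest in the ICM libraries. Aen was, like Trp53, highest in the ICM libraries, and its DRB value was 86.6% of control.

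The difference from the zygote was then set out for both late 2-cell libraries, within the shared table. The same 5 genes were at least 2-fold higher than PN5 in DRB and in control embryos: Sesn2, Cdkn1a, Ccng1, Gadd45a and Aen. None was lower in either. Over all genes 47.1% differed between DRB and PN5, 29.4% being higher and 17.7% lower in DRB, and 47.5% differed between control and PN5, 30.5% being higher and 17.0% lower in control. The median log2 ratio of well-expressed genes was -0.18 in the DRB and -0.13 in the control comparison. The comparisons share the PN5 library, and the late embryos had been cultured in DRB or DMSO, which is not stated for the PN5 zygotes, so stage and culture cannot be told apart. Sesn2 was 3.20 above PN5 in DRB and 4.89 in control embryos on the log2 scale, Cdkn1a 3.94 and 4.45, Ccng1 2.00 and 2.39, Gadd45a 1.93 and 2.15, and Aen 1.00 and 1.19. Aen in DRB embryos lay at the size rule itself. Btg2, Mdm4 and Trp53inp1 were 0.46 to 0.67 above PN5 in both libraries. Trp53 was lower than PN5 in both, with differences of -0.49 in DRB and -0.16 in control embryos. Mdm2 was at 0.00 in DRB embryos, -0.01 with a common sum and 0.18 with median scaling, and at 0.62 in control embryos.

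**Figure D3:**
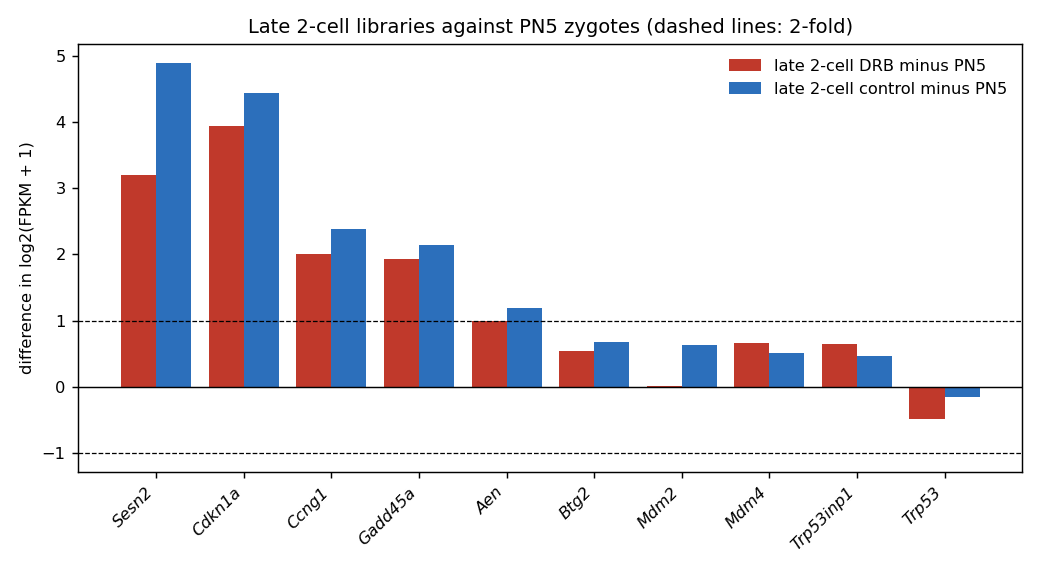
Difference in log2(FPKM + 1) from PN5 zygotes for DRB (red) and control (blue) late 2-cell embryos, genes ordered by the control value, with dashed lines at 2-fold. Sesn2 shows the widest gap between the libraries (3.20 and 4.89), Mdm2 is at 0.00 and 0.62, and Mdm4 and Trp53inp1 are higher in the DRB library.

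The share of the control's gain over PN5 that the DRB library held was 82.3% for Gadd45a, 78.3% for Aen, 71.0% for Ccng1, 68.8% for Cdkn1a and 28.6% for Sesn2, in FPKM. Among all 2331 genes that were at least 2-fold higher in control than in PN5 and at 5 FPKM or more in control, the median share was 51.3%, with quartiles of 31.6% and 79.5%. Sesn2 was therefore below the lower quartile, Gadd45a above the upper quartile, and the other 3 between the median and the upper quartile. The median depends on which library the genes were chosen on: for 1791 genes chosen in the same way on the DRB value, and higher in control than in PN5, the median was 88.1%.

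Few of the genes differed at least 2-fold between the earlier stages. Between PN5 and MII, 9 of the 10 genes were measured. Only Trp53inp1 was at least 2-fold higher (difference 1.57) and none was lower, where 18.0% of 10711 genes differed, 8.77% being higher and 9.23% lower. With the median log2 ratio of 0.33 between these tables set to 0, the counts over all genes were 345 higher and 1309 lower, and Trp53inp1 was still higher, at 1.25. In early 2-cell embryos Cdkn1a was at least 2-fold higher than in MII (2.65) and Mdm4 lower (-1.62), where 32.8% of 10669 genes differed, 3.98% being higher and 28.8% lower. These libraries had a median log2 ratio of -0.57. Set to 0, it gave 1061 higher and 1597 lower genes, and Trp53, at 0.72 as deposited, became a higher gene at 1.27. Rescaling both libraries to a sum of 1000000, which also raised every value against the pseudocount and filter, gave 2038 higher and 2547 lower genes.

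The ICM libraries, made with another method, were set beside the late 2-cell control as a description. Trp53 was at least 2-fold higher in ICM, 7 genes were lower, and Ccng1 and Aen lay within 2-fold. Over all genes 72.7% differed, 25.2% being higher and 47.4% lower in ICM. Mean levels in ICM were 67.2 ± 7.08 FPKM for Trp53, 12.9 ± 0.937 for Mdm2 and 8.89 ± 1.26 for Mdm4 (SD, n = 2), against 18.8, 90.0 and 650.0 FPKM in the control embryos. Mdm4 differed by -6.04 and Gadd45a by -4.69 on the log2(FPKM + 1) scale. As ratios of FPKM, control over ICM, Gadd45a differed 109.9-fold and Mdm4 73.1-fold. The ICM libraries also held trophectoderm markers at a summed 1767 and 1499.6 FPKM, against 31.9 FPKM in the control embryos. Their part in these differences was not tested, nor was that of the library method.

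Other known p53 targets were compared next. Of 42 listed in the deposited files, 37 were measured. Of these, 0 were at least 2-fold higher and 6 were lower in DRB than in control embryos. Over all genes 5.57% were higher and 9.99% lower. Among genes at a mean of 5 to 20 FPKM, 2.39% were higher and 13.7% lower. The median was -0.11 for the targets and -0.05 for all genes. The lower targets included Pmaip1, which encodes the cell death protein Noxa, at 3.96 FPKM in DRB and 15.3 FPKM in control embryos. Pidd1, a death domain scaffold, was at 2.36 and 8.72 FPKM. Sfn, which encodes the 14-3-3 sigma cell cycle brake, was at 13.5 FPKM in DRB and 32.5 FPKM in control embryos. Tap1, a peptide transporter, was at 3.22 FPKM in DRB and 8.56 FPKM in control embryos. 9630033F20Rik, the older symbol of the glycolysis regulator Tigar, was at 18.0 FPKM in DRB and 39.6 FPKM in control embryos. Eda2r, a death receptor gene named after its values were seen, was at 0.0767 FPKM in DRB and 1.67 FPKM in control embryos. The 4 most abundant targets lay within 2-fold: Rps27l at 333 FPKM in DRB and 266 in control, Rrm2b, a ribonucleotide reductase subunit, at 144 and 109, Ei24 at 89.7 and 124, and the mTORC1 inhibitor Ddit4 at 35.1 and 67.8. Against PN5, 19 of 35 measured targets were higher and 8 lower in DRB embryos, where 29.4% of all genes were higher and 17.7% lower. In control embryos 20 of 37 were higher and 6 lower, where 30.5% of all genes were higher and 17.0% lower. The median of the targets in DRB embryos against PN5 was 1.30, but -0.18 among those at 5 FPKM or more in either library, of which 11 were higher. That filter left fewer targets. Over all genes it moved the median from 0.27 to -0.06 and the count of higher genes from 3963 to 1818.

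Of 28 measured regulators of p53, 1 was higher and 3 were lower in DRB than in control embryos, with a median of -0.12. These shares are near those over all genes, 5.57% higher and 9.99% lower. The higher one was Cdkn2a, the locus of the Mdm2 inhibitor Arf and of the kinase inhibitor p16, whose transcripts are not separated here. It was at 12.2 FPKM in DRB and 4.38 FPKM in control embryos. The lower ones were Sirt1, a deacetylase of p53, at 16.5 FPKM in DRB and 41.9 FPKM in control embryos, Aurka, a mitotic kinase, at 22.5 and 51.1 FPKM, and Ppp1r13l, an inhibitor of p53, at 2.02 and 7.81 FPKM. The abundant regulators Rchy1 (210.2 FPKM in DRB and 158 in control), Cul4b (199.7 and 153), the checkpoint kinase gene Chek1 (145 and 98.0) and the deubiquitinase gene Usp7 (106 and 107) were within 2-fold.

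Nucleolar and ribosomal proteins that have been linked to stabilisation of p53 when ribosome assembly fails formed another list. Of 10 measured, 3 were lower by the 2-fold rule and 1 was higher, and the median was -0.72. Over all genes 9.99% were lower and 5.57% higher, and the median was -0.05. Mybbp1a was at 8.93 FPKM in DRB and 35.4 FPKM in control embryos, the ribosome assembly factor gene Bop1 at 4.32 and 18.1 FPKM, and Gltscr2 at 5.23 and 16.7 FPKM. Npm1, the nucleolar protein nucleophosmin, was at 51.8 FPKM in both, and Ncl, nucleolin, at 31.7 FPKM in DRB and 35.6 FPKM in control embryos. Rps3 was at 16.6 and 32.4 FPKM. The higher one, Rpl5, named after its value was seen, was at 2.62 FPKM in DRB and 0.629 FPKM in control embryos. Rpl11 was listed at 0 in PN5 and in both late 2-cell libraries. It was at 106 FPKM in MII, 33.3 in early 2-cell embryos and a mean of 24.8 in ICM. Rpl26 was at 0.0017 FPKM in DRB, 0.00295 in control and 0.000866 in PN5. It was at 51.1 FPKM in MII, 10.2 in early 2-cell embryos and a mean of 240.5 in ICM. The libraries at or near 0 for both genes were those of the shared table, and the part of the table in these values was not tested. Ribosomal protein genes have many near-identical copies, so that their values in this list are uncertain.

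Paralogues that share ancestry but not always p53 control were compared in the same way. Of 15 measured, 1 was higher and 1 lower in DRB embryos, with a median of 0.06. Over all genes 5.57% were higher and 9.99% lower, and the median was -0.05. Cdkn1b, which encodes the kinase inhibitor p27, was at 29.1 FPKM in DRB and 13.0 FPKM in control embryos, opposite in direction to Cdkn1a. Isg20l2, a nuclease related to Aen, was at 13.9 FPKM in DRB and 30.9 FPKM in control embryos. The most abundant were Btg4, an oocyte deadenylation factor, at 1948 FPKM in DRB and 1529 FPKM in control embryos, and Trp53inp2 at 159 and 119 FPKM. Ccng2 (30.0 FPKM in DRB and 39.8 in control) and Gadd45b (32.8 and 33.8) lay within 2-fold.

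**Figure D4:**
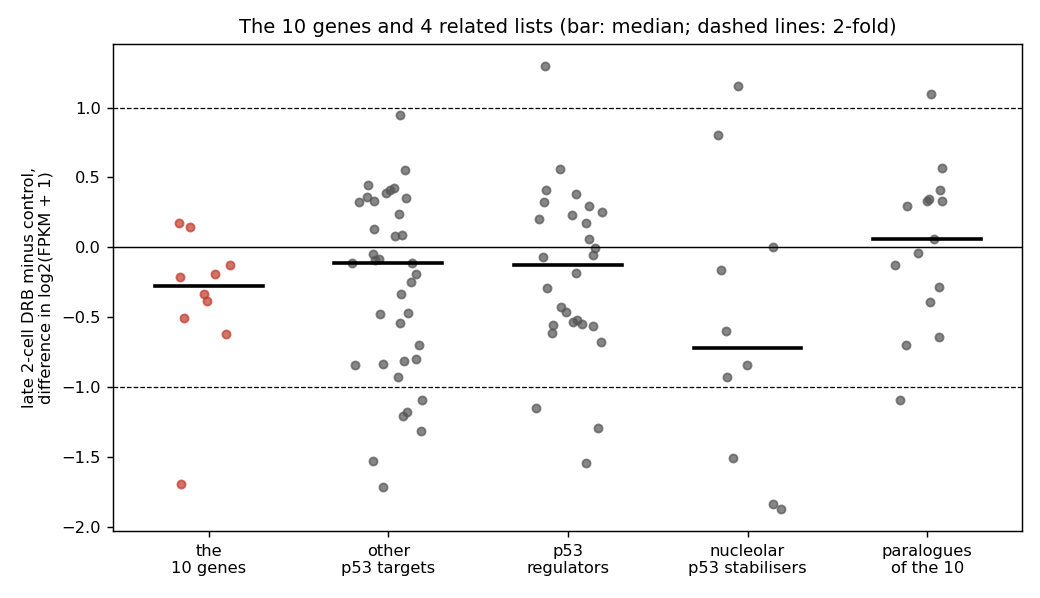
Difference between DRB and control embryos in log2(FPKM + 1) for the 10 genes (red) and for measured genes of 4 related lists (grey); bars are medians and dashed lines mark 2-fold. The medians are -0.27 for the 10 genes, -0.11 for other p53 targets, -0.12 for p53 regulators, -0.72 for nucleolar proteins and 0.06 for paralogues.

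Marker lists of other stages and cell types were set beside the DRB comparison. Of 8 markers of the 2-cell stage 7 were lower in DRB than in control embryos, with a summed level of 168 FPKM in DRB and 334 FPKM in control embryos. Of 8 oocyte markers 4 were higher and 4 lower in DRB embryos. Their sum was 3243 FPKM in DRB and 2498 FPKM in control embryos. The gap between these sums came largely from Bmp15, at 1466 and 766 FPKM. Oosp1, also a large part of both sums, was at 1408 and 1280 FPKM. Of 10 cumulus and granulosa markers 7 were at 1 FPKM or more in DRB and 6 in control embryos, with a summed level of 79.4 and 77.3 FPKM. In DRB embryos 6 of the 10 were higher than in control embryos, 3 lower and 1 equal. Inha and Ptx3 were listed at 0 in DRB, and Fshr and Ptx3 in control embryos. Foxl2 was at 7.20 FPKM in DRB and 1.04 FPKM in control embryos, and Amhr2 at 2.12 and 16.7 FPKM. Of 6 trophectoderm markers 4 were higher and 2 lower in DRB embryos, with sums of 40.5 FPKM in DRB and 31.9 FPKM in control embryos, Gata3 being at 10.2 and 2.60 FPKM. Among 6 ICM markers 5 were higher and 1 lower in DRB embryos, with sums of 324 FPKM in DRB and 286 FPKM in control embryos. The part of these values in the differences of the p53 genes was not tested.

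The genes most like 3 of the members were found by the root-mean-square distance between profiles of log2(FPKM + 1) over the 7 libraries, each centred on its own mean, among 8849 genes that reached 10 FPKM. Nearest to Cdkn1a were Gadd45b (0.31), Id1 (0.33), Bex6 (0.55), E130012A19Rik (0.55) and Hist1h2ak (0.62), where the median gene lay at 2.23. Like Cdkn1a, Gadd45b was higher in ICM replicate 2 (17.4 FPKM) than in replicate 1 (3.08 FPKM). Nearest to Mdm2 were Edem1 (0.17), Nol8 (0.20), Usp29 (0.20), 1700066M21Rik (0.21) and Fam72a (0.21), with a median of 1.33. Of the other members Btg2 lay closest to Mdm2, at 0.35 and rank 134. Nearest to Trp53 were Ywhah (0.24), Tmem106a (0.24), 1110001J03Rik (0.26), Cdipt (0.27) and Trmt6 (0.28), with a median of 1.51. None of the 10 genes was among the 5 nearest of these 3. The other 7 were not compared in this way.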

How the data were processed

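RNA was analysed in 7 of the 116 samples of the series; the other 109 were not used here. The authors deposited FPKM per gene symbol in 4 tables. Per the submitters' processing notes, CASAVA 1.8, TopHat2 2.1.1, Cufflinks 2.1.1 and build mm9 were used, without a role for each. Counting settings and use of strand: not given in the sources used here. The MII column bears a name that a chromatin sample also bears and was taken as the MII RNA library because the table is listed with it. No value column lacked a sample (0 columns).

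Tables held 24029 to 24578 rows. Rows sharing a symbol (up to 497) were summed. Differences were taken on log2(FPKM + 1) for genes reaching 1 FPKM in either group, and called at 2-fold. With 1 library a group no test was possible and no p-value is given. Read depth is unknown: ratios of values below 0.3 FPKM showed no steps in total RNA (at most 18 of 645 genes at 1 ratio), while 199 of 1972 genes lay at a ratio of 0.474 in ICM, so reads behind a value cannot be given. The calculation was tested on simulated data. Python 3.11.15 and pandas 2.3.3 were used.

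The members and the 4 lists were chosen with earlier results of these data known. All members were named. From each list the 4 most abundant genes were named, and those past 2-fold at 5 FPKM or more in DRB or control embryos. GRCm38 tables of RefSeq served for synonyms, overlaps and promoter windows.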

Additional observations from a re-analysis of the deposited data

How the results depend on the processing

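In the comparison of DRB with control embryos 0 members were higher under all 7 alternatives, and 1 was lower except with a size rule of 1.5-fold, which gave 2 (Mdm2 besides Sesn2). The 5 members higher than PN5 were 5 in every setting but that rule, in DRB and in control embryos. The count of members higher in PN5 than in MII, 1 as reported, was 2 with a pseudocount of 0.1 FPKM, 2 with a common sum and 4 with the 1.5-fold rule. Over all genes the same counts were 939 as reported, then 1394, 706 and 2939. The count of members higher in early 2-cell than in MII, 1 as reported, was 2 with median scaling, 2 with a common sum and 2 with the 1.5-fold rule. Over all genes it was 425 as reported, then 1061, 2038 and 807. The count of members lower, 1 as reported, was 3 with the 1.5-fold rule, where the count over all genes went from 3075 to 5276. For ICM against control, leaving out replicate 1 or replicate 2 left 1 higher and 7 lower. The median of other p53 targets in DRB against PN5, 1.30 as reported, turned to -0.18 with a filter of 5 FPKM, and its count of higher targets was then 11 in place of 19. Other p53 targets lower in DRB than in control were 12 in place of 6 with the 1.5-fold rule, and 2 were higher with a common sum. Over all genes the count higher in DRB, 765 as reported, was 1432 with a pseudocount of 0.1 FPKM, 245 with a filter of 5 FPKM and 1947 with the 1.5-fold rule, which gave 3023 lower. The common sum was 1000000, so that setting also raised every value while the pseudocount and filter stayed at 1 FPKM. The cause of the changes between settings was not tested further. No paired analysis was possible because the groups compared share fewer than 2 replicate numbers. The total RNA groups have no replicate and no known depth, which limits every difference between them.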

Other observations

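Because Sesn2 is also a target of ATF4, a list of 29 genes of the integrated stress response, Sesn2 included, was written down after the values of the 10 genes had been seen, and it supports no statement about the group as a whole. All 29 were measured between DRB and control embryos. By the 2-fold rule 5 were lower and 1 was higher in DRB embryos, with a median of -0.24. Sesn2, which prompted the list, is 1 of the 5. Over all genes 9.99% were lower and 5.57% higher, and the median was -0.05. Psat1, an enzyme of serine synthesis, was at 15.5 FPKM in DRB and 46.1 FPKM in control embryos. Trib3, a pseudokinase, was at 7.63 FPKM in DRB and 25.7 FPKM in control embryos. Ppp1r15a, a phosphatase subunit that acts on eIF2 alpha, was at 29.3 FPKM in DRB and 64.8 FPKM in control embryos, and the transfer RNA synthetase gene Aars at 8.90 and 26.6 FPKM. With Sesn2 these make up the 5 lower genes. The higher one was Psph, at 3.92 FPKM in DRB and 0.892 FPKM in control embryos, although it acts in the same pathway as Psat1. Atf4 itself was at 132 FPKM in DRB and 155 FPKM in control embryos, and Ddit3, the stress transcription factor CHOP, at 12.1 and 14.6 FPKM.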
